A study of Mus musculus with 35 samples.

Results

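The 4 inhibitor of DNA binding genes Id1, Id2, Id3 and Id4 and the Smad genes Smad6, Smad7 and Smad9 were followed through reprogramming of mouse cells. They were taken by name as direct targets of bone morphogenetic protein (BMP) signalling, and make up 7 of the 21350 genes in the table. The 35 libraries were made from poly-A enriched RNA. According to the labels, factor combinations were delivered by infection and the cells were then grown in the reprogramming medium iCD1, and part of the cultures received 10 ng/ml BMP4 from that medium change. The names of the combinations, ODR, OA, OB, ODDR and ODB, are not expanded in the labels. ODR, OA and OB without BMP4 were sampled at day 1 (2 libraries each), day 6 (3, 3 and 4 libraries) and day 14 (3 libraries each). ODR and OB with BMP4 were sampled at day 6 (2 libraries each), and day 9 libraries exist for ODDR and ODB, in either case 1 with BMP4 and 1 without. Embryonic stem cells (mESC) and embryonic fibroblasts (MEF) had 1 library each. The starting cells, strain and origin of the replicates are not named in the labels, so that p-values reflect only how far these libraries scatter, which may be technical scatter.

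BMP ligands bind paired receptor kinases that phosphorylate Smad1, Smad5 and Smad9, which enter the nucleus with Smad4 and switch on target genes. The Id genes are the classical targets. Their proteins lack a DNA-binding region and pair with E proteins, a family of basic helix-loop-helix transcription factors, and so keep these factors from DNA. Smad6 and Smad7 are inhibitory Smads that block the pathway from which they are induced, Smad6 mainly the BMP branch and Smad7 both the BMP and the TGF-beta branch. Smad9, also called Smad8, is a receptor-regulated Smad and not an inhibitory one.

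In the GENCODE annotation of build GRCm38 (mm10), these genes lie apart from each other. Id1 is at chr2:152736251-152737410 on the plus strand, Id2 at chr12:25093799-25097140 on the minus strand, Id3 at chr4:136143497-136145755 on the plus strand and Id4 at chr13:48261228-48266026 on the plus strand. Smad6 is at chr9:63953076-64022059 on the minus strand and Smad9 at chr3:54755582-54801257 on the plus strand. A RefSeq promoter window of build GRCm38.p6 matched 5 of the 7 genes. The 250 bases before the RefSeq start are printed for the 3 genes whose window overlaps no annotated exon, because these genes lie among those that BMP4 raised in both combinations tested. They were searched on both strands for GGCGCC, a GC-rich element known from Id gene enhancers, and for CAGAC, a Smad4-type element, and these motifs do not overlap. Capitals mark GGCGCC. The windows are chr13:48260866-48261115 on the plus strand for Id4, chr9:64022060-64022309 on the minus strand for Smad6 and chr3:54755332-54755581 on the plus strand for Smad9.
Id4: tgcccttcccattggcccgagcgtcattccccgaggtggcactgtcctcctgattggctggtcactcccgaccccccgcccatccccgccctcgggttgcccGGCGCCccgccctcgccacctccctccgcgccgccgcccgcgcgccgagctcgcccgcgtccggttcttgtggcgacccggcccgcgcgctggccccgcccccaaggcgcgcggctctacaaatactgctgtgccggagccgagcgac
Smad6: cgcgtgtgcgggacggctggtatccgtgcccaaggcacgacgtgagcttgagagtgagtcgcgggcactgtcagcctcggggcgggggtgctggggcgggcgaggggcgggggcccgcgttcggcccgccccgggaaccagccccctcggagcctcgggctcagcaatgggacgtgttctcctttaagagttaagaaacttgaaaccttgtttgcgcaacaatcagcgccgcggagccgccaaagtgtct
Smad9: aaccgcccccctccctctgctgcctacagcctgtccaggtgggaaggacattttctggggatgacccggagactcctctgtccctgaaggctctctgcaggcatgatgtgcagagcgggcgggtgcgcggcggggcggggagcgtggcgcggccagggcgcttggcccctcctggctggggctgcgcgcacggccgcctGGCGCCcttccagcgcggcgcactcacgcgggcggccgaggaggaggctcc
GGCGCC was present 1 time each in the windows of Id2, Id4 and Smad9, with its first base at -231, -148 and -51 relative to the RefSeq start on which the window is built. For Id2, Id3 and Id4 the RefSeq start is not the GENCODE gene start given above, and the whole Id2 and Id3 windows lie inside their GENCODE genes. GGCGCC was thus in 3 of 5 windows, against 9.59% of 32851 RefSeq windows of this length. The 5 windows were 62.8% to 75.6% G and C, and this motif is made of G and C alone. The share over all windows was not matched for that content, so enrichment was not tested. CAGAC was present in the Id3 window alone, 2 times, against 42.2% of all windows. All 250 bases of that Id3 window are annotated exon. The Smad6 window held neither run of letters. A match is a description of these letters and not a measured binding site.

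The values are normalized tag counts as deposited, without counting depth, and levels are compared between libraries and not between genes. The columns labelled ODR day 6 replicate 3 and ODR with BMP4 day 6 replicate 2 were identical at all 21350 genes. This shared day 6 library correlated across genes at 0.9704 and 0.9623 with the other ODR day 6 libraries and at 0.9025 with the other ODR BMP4 library. It held Id1 at 37, Id3 at 28, Smad6 at 0 and Smad9 at 18, within or near the range without BMP4, and was left out of both groups. The ODR groups at day 6 then hold 2 untreated libraries and 1 treated library. The ODDR and ODB columns with BMP4 at day 9 were also identical to each other. Kdm2b was at 4220 or more in all OB libraries and ODB at day 9, and at 239 in the shared day 9 library against 452 in ODDR without BMP4. The library labelled OA day 14 replicate 2 stood apart from its group: Kdm2a was at 721 there and at 18690 in the other OA day 14 libraries. Results that rest on that library are given with and without it.

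**Figure D1:**
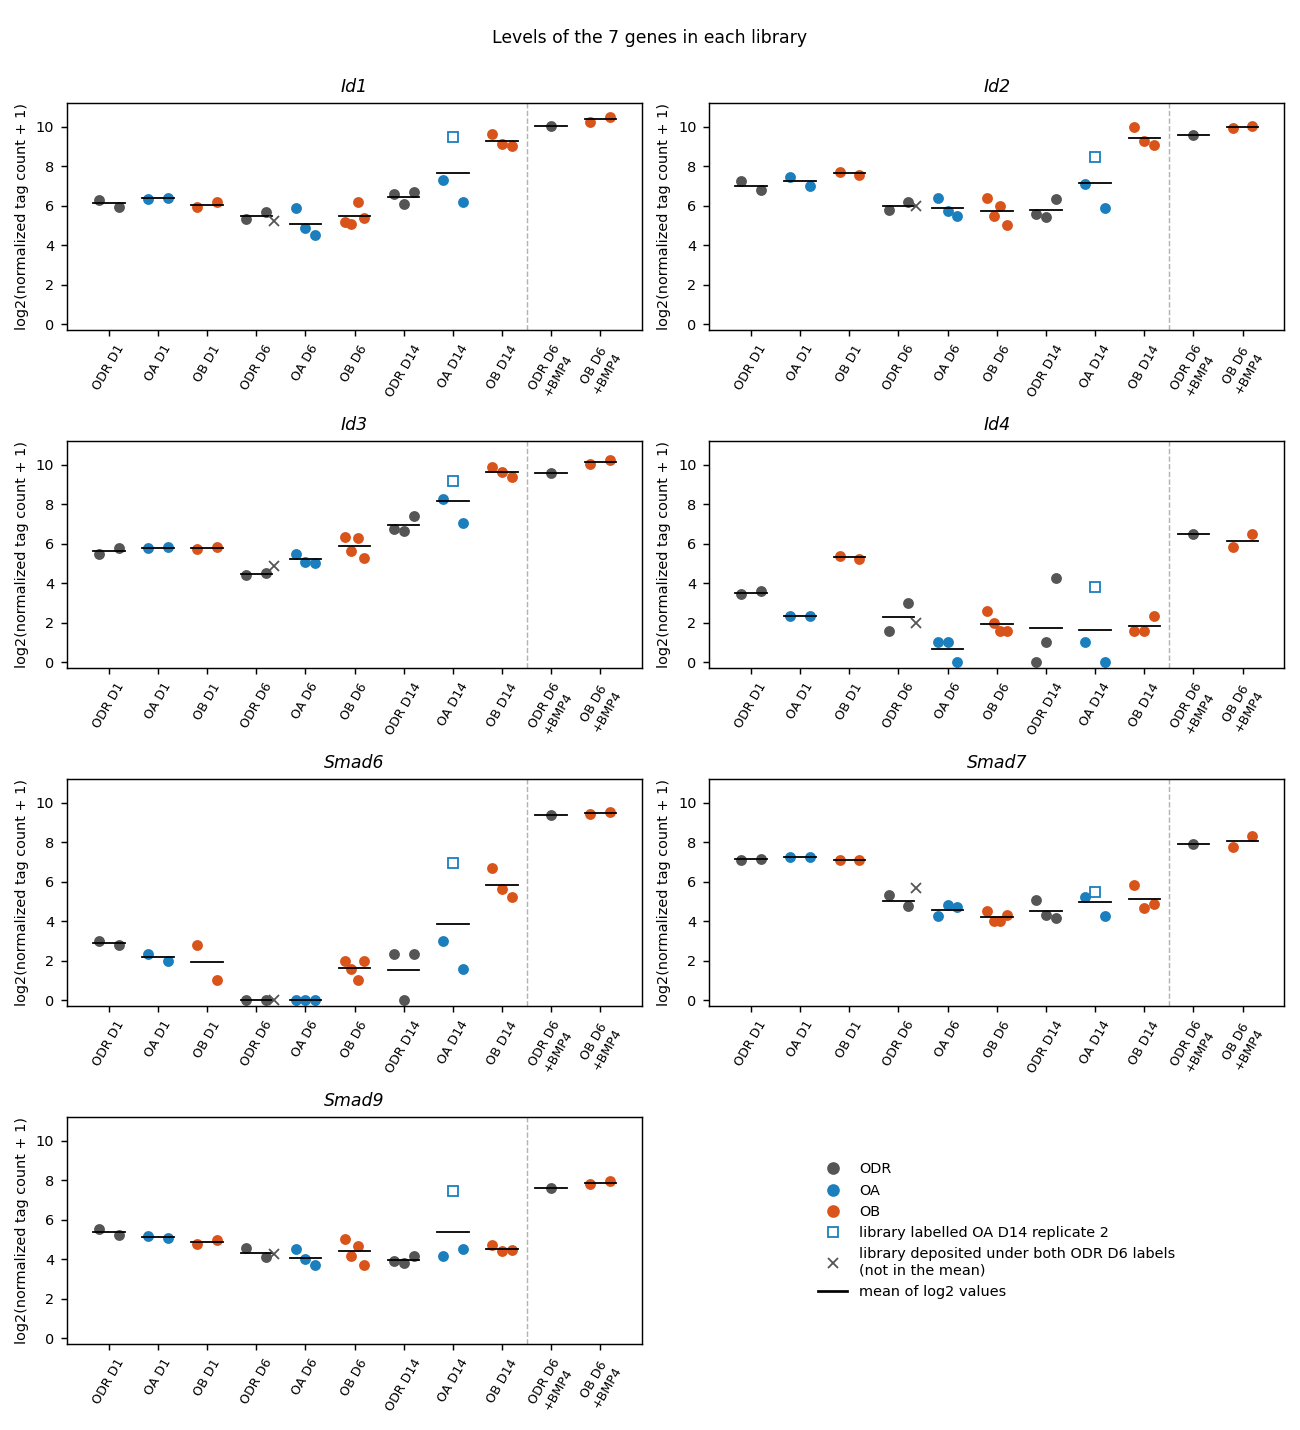
Deposited normalized level of each of the 7 genes (vertical axis, log2 of the value plus 1) in the ODR, OA and OB libraries (points) by group (horizontal axis), with bars at the group means, a square for OA day 14 replicate 2 and a cross for the shared day 6 library. The BMP4 libraries of ODR and OB at day 6 lie above the day 6 libraries without BMP4 in all 7 panels, and the OB day 14 libraries lie high for Id1, Id2 and Id3 and low for Id4 and Smad9.

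All 7 genes rose with BMP4 in OB cells at day 6. Among the targets that encode E protein antagonists, Id1 was at 35, 33, 71 and 41 without BMP4 and at 1230 and 1432 with it. Id2 was at 84, 43, 62 and 32 without BMP4 and at 996 and 1036 with it, and Id3 at 81, 49, 78 and 38 against 1062 and 1194. Id4 was listed low without BMP4, at 5, 3, 2 and 2, and was at 55 and 90 with it. For each of the 4 Id genes the groups did not overlap. How many of all genes do not overlap was not counted, so here and below this is only a description of the values. The log2 fold changes, all on the log2(value + 1) scale, lay close together: 4.92 ± 0.59 (SE) for Id1, 4.27 ± 0.51 for Id2, 4.24 ± 0.40 for Id3 and 4.22 ± 0.93 for Id4. Adjusted p-values (limma, Benjamini-Hochberg over 13860 genes) ran from 1.15e-06 for Id3 to 0.00215 for Id4. Against a background of 15% of all genes called higher in this comparison (32.5% in either direction), 7 of 7 members were called higher. Their median log2 change was 4.24, beside -0.02 over all genes tested.

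The feedback inhibitor Smad6 went from 3, 2, 1 and 3 without BMP4 to 678 and 743 with it in OB cells. Its log2 fold change was 7.83 ± 0.98 (adjusted p = 1.54e-05, limma), and starts from values near the 1 added before the log. Smad7, which recruits ubiquitin ligases to the receptors, was at 22, 15, 15 and 19 against 218 and 323 (3.85 ± 0.35, adjusted p = 8.41e-07, limma). Smad9, itself a carrier of the BMP signal, was at 32, 17, 24 and 12 against 220 and 248 (3.48 ± 0.59, adjusted p = 0.000238, limma). None of these groups overlapped. Every one of the 7 calls was kept under all the alternative settings run.

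In ODR cells at day 6 the single BMP4 library also held all 7 genes above the 2 libraries without BMP4. Id1 was at 39 and 50 against 1046, Id2 at 54 and 71 against 760, and Id3 at 20 and 22 against 780. Id4 was at 2 and 7 against 88, Smad7 at 39 and 26 against 242, and Smad9 at 23 and 16 against 193. Smad6 was listed at 0 in both libraries without BMP4 and was at 662 with it, so that no fold is given. With the spread pooled over all groups, 7 of 7 were called higher (adjusted p 3.37e-05 for Id3 to 0.0476 for Id4, limma), where 5.06% of all genes were called higher and 11.5% in either direction. Log2 fold changes were 5.15 ± 0.57 for Id3, 4.53 ± 0.83 for Id1, 4.18 ± 1.32 for Id4, 3.60 ± 0.72 for Id2, 3.26 ± 0.83 for Smad9 and 2.89 ± 0.50 for Smad7. These calls rest on 1 treated library that is assumed to vary like the other groups. In a fit of only these 2 groups Id4 and Smad6 did not pass the filter on low values, 0 of the 5 members tested were called, as were 0 of all genes, and with the shared library kept under its BMP4 label 0 of 7 passed. The call of Id4 was also lost without the filter on low values (adjusted p = 0.061) and on leaving out either ODR library without BMP4 (adjusted p = 0.19 and 0.0722, limma). That of Smad9 was lost without ODR replicate 2 (adjusted p = 0.0842, limma).

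The response to BMP4 was next compared between the combinations. In a test of the difference of the 2 effects, 0 of 7 genes were called, where 1.26% of all genes were. The estimated difference, OB minus ODR on the log2 scale, was 0.39 ± 1.02 for Id1, 0.67 ± 0.88 for Id2, -0.91 ± 0.69 for Id3, 0.04 ± 1.62 for Id4, 0.96 ± 0.61 for Smad7 and 0.22 ± 1.02 for Smad9. The standard errors are wide, and a missed threshold does not show that the combinations responded alike. The level in BMP4-treated cells also gave 0 of 7 calls between OB and ODR (2.26% of all genes were called). The Id3 values were 1062 and 1194 in OB against 780 in ODR, and for Id4 the value of 88 in ODR lay between the 55 and 90 of OB.

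Markers of other cell types were read in the same libraries. The summed level of 6 epithelial markers was 52 to 86 in OB day 6 libraries and 996 to 2019 with BMP4. Cldn4 made up most of the latter, at 657 and 1148. Krt8 was at 136 and 404 with BMP4, Krt18 at 120 and 274, Cdh1 at 34 and 107, Epcam at 48 and 86, and Cldn6 at 1 and 0. In ODR the sum was 17 to 41 without BMP4 and 43 with it, and there Cdh1, Epcam and Cldn6 were at 0 with BMP4 while Id1 was at 1046 and Smad6 at 662. The sum of 8 fibroblast markers was 36450 to 38927 in OB day 6 libraries and 25343 to 26112 with BMP4, but 2 of the 8 rose, among them Prrx1, and 3 fell, among them Col3a1 and Twist1. Postn stood at 18690, the ceiling of the values, in both OB libraries with BMP4. Col3a1 or Postn stood there in each OB day 6 library without BMP4, so that the ceiling limits these sums. In that comparison 15% of all genes were called higher and 32.5% in either direction. The sum of 4 muscle markers was 1896 to 1987 without BMP4 and 380 to 386 with it, with Myod1 and Myog at 0 in both. This sum was almost Des alone, at 1890 to 1968 without BMP4 and at 380 and 386 with it. The sum of 6 neural markers was 1892 to 2636 without BMP4 and 914 to 950 with it. The part of these markers in the results was not tested. In bulk RNA, fewer cells of a type and less RNA per cell cannot be told apart.

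**Figure D2:**
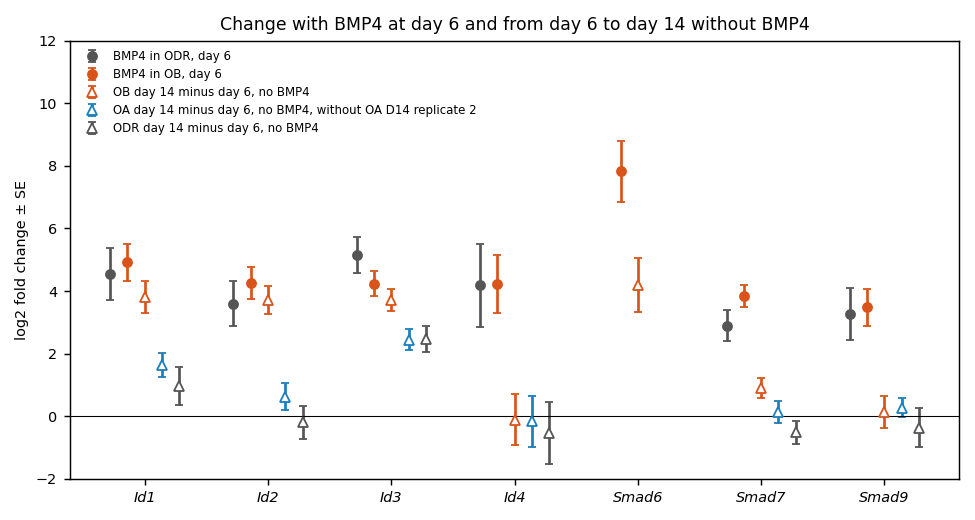
Log2 fold change (vertical axis, log2 of the value plus 1, with bars of 1 SE) of each gene (horizontal axis) for BMP4 at day 6 (circles) and for day 14 against day 6 without BMP4 (triangles, OA without replicate 2), with Smad6 not drawn where a group is listed at 0. All circles lie at 2.89 or above, while the OB triangles run from -0.11 for Id4 and 0.13 for Smad9 to 4.20 for Smad6.

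Without any added BMP4, OB cells held some of these genes at high levels by day 14. Id1 was at 807, 549 and 514, Id2 at 1001, 617 and 548, and Id3 at 946, 789 and 658. All of these values lay above the highest day 6 values without BMP4, which were 71, 84 and 81. The log2 increases from day 6 were 3.80 ± 0.52 for Id1, 3.72 ± 0.45 for Id2 and 3.73 ± 0.35 for Id3 (adjusted p = 8.3e-06, 2.16e-06 and 1.55e-07, limma). Id4, by contrast, was at 2, 2 and 4 at day 14 (-0.11 ± 0.82, adjusted p = 0.924, limma), in the range of its day 6 values. Id2 is known for a broad role in progenitor and lymphoid cells, and Id4 for one in neural and mammary cells.

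Among the Smads of OB cells at day 14, Smad6 was at 101, 49 and 36, above all day 6 values (4.20 ± 0.86, adjusted p = 0.000471, limma). Smad7 was at 56, 24 and 28 against 15 to 22 at day 6 (0.90 ± 0.31, adjusted p = 0.0195, limma). This call was lost without OB day 14 replicate 1 (0.54, adjusted p = 0.166, limma). Smad9 was at 25, 20 and 21, within the 12 to 32 of day 6 (0.13 ± 0.52, adjusted p = 0.854, limma). In all, 5 of 7 members were called higher, in a comparison in which 26.8% of all genes were called higher and 55% in either direction. Their median log2 change was 3.72, beside -0.01 over all genes.

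The day 14 levels were then set beside those of BMP4-treated OB cells at day 6. These comparisons share the OB day 6 or day 14 libraries with those above. The mean level at day 14 was 46.8% of the BMP4 level for Id1, 71.1% for Id2 and 70.7% for Id3. It was 13.3% for Smad7, 9.4% for Smad9, 8.73% for Smad6 and 3.68% for Id4. The test of OB day 14 against BMP4-treated OB called 4 of 7 members lower, Id4, Smad6, Smad7 and Smad9, with log2 differences of -4.33 ± 0.98, -3.63 ± 1.03, -2.95 ± 0.37 and -3.36 ± 0.62 (adjusted p = 0.00143, 0.00697, 5.42e-06 and 0.000251, limma). In that comparison 24.2% of all genes were called lower and 50.4% in either direction. For Id1, Id2 and Id3 the differences were -1.12 ± 0.62, -0.54 ± 0.54 and -0.51 ± 0.42 (adjusted p = 0.143, 0.42 and 0.327, limma). The Id2 values overlapped, while each Id1 and Id3 value at day 14 lay below both BMP4 libraries. With the library labelled OA day 14 replicate 2 out of the pooled spread, Id1 was called lower as well, where 25.9% of genes were called lower.

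**Figure D3:**
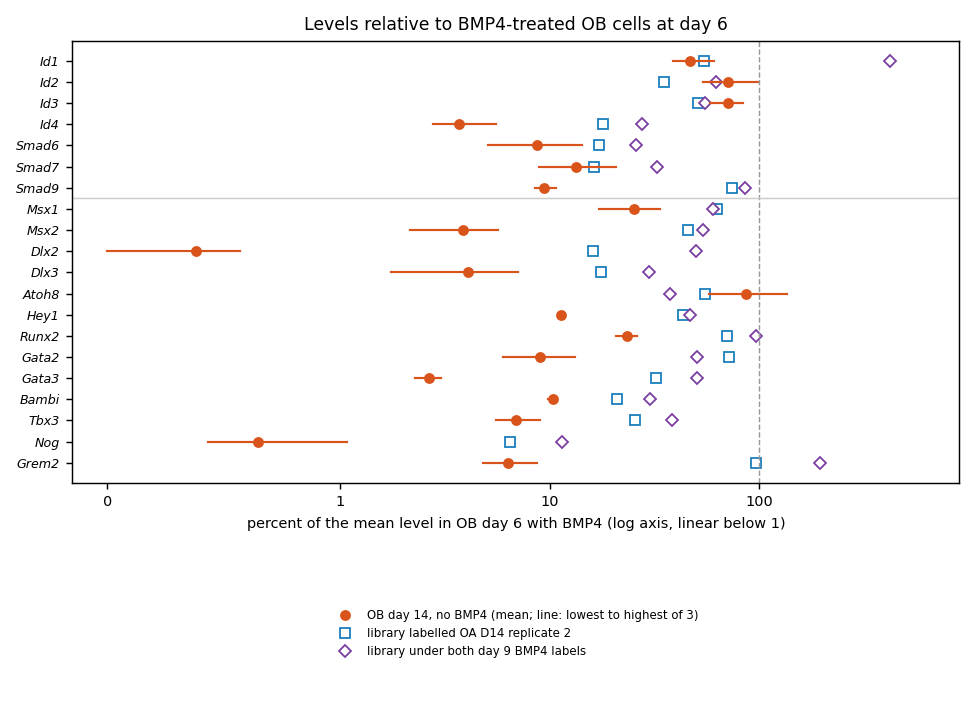
Level of the 7 genes and of other BMP targets as a percent of the mean in BMP4-treated OB cells at day 6 (horizontal axis, log scale, linear below 1). Filled points give the OB day 14 mean with a line from the lowest to the highest of 3 libraries, and open marks give 2 single libraries. Id1, Id2, Id3 and Atoh8 lie between 46.8% and 86.7%, and Id4, Smad6, Smad7 and Smad9 at 13.3% or less.

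OB cells differed from ODR cells in these genes at day 14. ODR libraries held Id1 at 96, 68 and 102, Id2 at 46, 42 and 81, and Id3 at 107, 98 and 166. Every OB value was above them. The log2 differences were 2.79 ± 0.55 for Id1, 3.67 ± 0.48 for Id2 and 2.70 ± 0.38 for Id3 (adjusted p = 0.000337, 4.88e-06 and 9.73e-06, limma). Smad6 was at 4, 0 and 4 in ODR and higher in OB by 4.29 ± 0.92 (adjusted p = 0.000676, limma). Thus 4 of 7 members were called higher, where 28% of all genes were called higher and 54.7% in either direction. Id4 was at 0, 1 and 18 in ODR, which spans the OB values. Smad7 was at 33, 19 and 17 (0.59 ± 0.33, adjusted p = 0.144, limma) and Smad9 at 14, 13 and 17 (0.56 ± 0.56, adjusted p = 0.42, limma). Every Smad9 value in OB lay above those of ODR, by a margin that missed the threshold.

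Within ODR, Id3 alone of the 7 was called from day 6 to day 14, from 20 and 22 to 107, 98 and 166 (2.46 ± 0.42, adjusted p = 0.00284, limma), where 2.27% of all genes were called higher and 3.95% in either direction. With the shared library kept under its BMP4 label, that call was lost. The change from day 6 to day 14 was larger in OB than in ODR for Id1 by 2.83 ± 0.81, for Id2 by 3.92 ± 0.70 and for Smad7 by 1.41 ± 0.48 (adjusted p = 0.011, 0.000387 and 0.0294, limma). These are 3 of 7 members, where 18.3% of all genes were called in this direction and 35.4% in either. The Smad7 call was lost on leaving out any of 6 single libraries (ODR day 6 replicate 1, ODR day 14 replicate 2 or 3, OB day 6 replicate 2 or 3, OB day 14 replicate 1; adjusted p 0.0504 to 0.144, limma), and that of Id1 without ODR day 6 replicate 2 (adjusted p = 0.0501, limma). With the shared library kept under its BMP4 label, Id2 alone passed. For Id3 the difference was 1.26 ± 0.55 (adjusted p = 0.0826, limma), and it passed without the library labelled OA day 14 replicate 2 (adjusted p = 0.0279, limma), where 20.6% of all genes were called in this direction. Smad6 passed as well without it, but its ODR day 6 libraries are listed at 0.

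In the OA group at day 14, 1 library lay far above the others in several of these genes. Id1 was at 157, 722 and 71, Id2 at 138, 355 and 58, and Id3 at 303, 573 and 132 in replicates 1, 2 and 3. Smad6 was at 7, 122 and 2, Smad9 at 17, 174 and 22, Id4 at 1, 13 and 0, and Smad7 at 36, 44 and 18. In each gene replicate 2 was the highest. Across genes this library correlated at 0.9614 with the shared day 9 BMP4 library and at 0.9442 with OB with BMP4 replicate 1, and at 0.897 and 0.8941 with the other OA day 14 libraries. Its Smad9 value of 174 was the highest of any library grown without BMP4 by label, and the other libraries of its group were at 17 and 22.

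With all 3 OA libraries, 0 of 7 members were called between OA and ODR at day 14 (5.35% of all genes were called). Without replicate 3, Id1, Id2, Id3 and Smad6 were called higher in OA, and without replicate 1 Smad9 was (adjusted p 0.00236 to 0.0371, limma). Both of these fits keep replicate 2, and without replicate 2 the count was 0 of 7. Over the settings run, 5 to 1228 of all genes were called in this comparison. OA rose from day 6 for Id1 by 2.56 ± 0.55 and for Id3 by 2.95 ± 0.38 (adjusted p = 0.00935 and 0.000165, limma). Smad6 was also called, from a group listed at 0, which makes 3 of 7, where 4.05% of all genes were called higher and 8.14% in either direction. Without replicate 2 those 3 genes were called again, where 4.55% of genes were, with 1.64 ± 0.39 for Id1 and 2.44 ± 0.33 for Id3 (adjusted p = 0.0155 and 0.000318, limma). In a fit of only these 2 groups 0 of the 5 members tested were called, Id4 and Smad6 being below the filter on low values. The Smad6 call was lost without OA day 6 replicate 2 or 3 (adjusted p = 0.0565 and 0.0528, limma) and with a pseudocount of 10 (adjusted p = 0.0719, limma). OB exceeded OA at day 14 in Id1 by 1.60 ± 0.55, in Id2 by 2.29 ± 0.48 and in Id3 by 1.47 ± 0.38 (adjusted p = 0.0218, 0.000658 and 0.00326, limma), which are 3 of 7, where 26.5% of all genes were called higher and 51.7% in either direction. Without replicate 2 these values were 2.52 ± 0.39, 2.95 ± 0.42 and 1.97 ± 0.33, and Smad6 was called too at 3.55 ± 0.64 (adjusted p = 0.00019, limma), where 26.6% of genes were called higher. The Id1 call was lost without OA replicate 1 or 3 or OB replicate 1 (adjusted p 0.069 to 0.166, limma), and a fit of only these 2 groups kept Id2 alone. The change from day 6 to day 14 differed between OB and OA for Id2 by 2.44 ± 0.66 (adjusted p = 0.00867, limma), 1 of 7 where 16.9% of all genes were called in this direction and 32.8% in either. Without replicate 2, Id1 at 2.16 ± 0.51 and Id3 at 1.28 ± 0.44 passed as well (17.7% of genes).

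Smad7, at chr18:75367529-75395935 on the plus strand of GRCm38, was called lower at day 6 than at day 1 in each combination. At day 1 it was at 137 and 142 in ODR, 152 and 152 in OA, and 136 and 135 in OB. By day 6 it was at 39 and 26 in ODR, 18, 27 and 25 in OA, and 22, 15, 15 and 19 in OB, with no overlap. The log2 changes were -2.10 ± 0.40 in ODR, -2.67 ± 0.37 in OA and -2.88 ± 0.35 in OB (adjusted p = 0.00104, 2.95e-05 and 7.49e-06, limma). In ODR and OA it was the single call among the 7, where 12.5% and 17.6% of all genes were called lower and 25.1% and 34.6% in either direction. In OB 3 of 7 members were called lower, where 17.1% of all genes were called lower and 33.8% in either direction. The other 2 were Id2, from 209 and 190 to 32 to 84 (-1.92 ± 0.51, adjusted p = 0.00718, limma), and Id4, from 41 and 37 to 2 to 5 (-3.38 ± 0.93, adjusted p = 0.0093, limma). Without OB day 1 replicate 1 only Smad7 kept its call in OB, and without replicate 2 Id4 lost its call (adjusted p = 0.0587, limma). Without the library labelled OA day 14 replicate 2 in the pooled spread, the counts became 4 of 7 lower in ODR and 5 of 7 lower in OA, with Smad6, Smad7 and Smad9 among both (15.4% and 20.6% of genes were called lower).

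At day 1 no member was called between the combinations, where 0.88% (OB against ODR), 0.0649% (OA against ODR) and 1.4% (OB against OA) of all genes were called. Id4 was at 41 and 37 in OB, at 10 and 11 in ODR and at 4 and 4 in OA. Those groups did not overlap, but the log2 difference of OB from ODR was 1.80 ± 1.08 (adjusted p = 0.708, limma) and that of OB from OA 2.998 ± 1.08 (adjusted p = 0.236, limma). The latter was called with a pseudocount of 10 (adjusted p = 0.0145, limma) and in a fit of only those 2 groups (adjusted p = 0.0252, limma). At day 6, Id3 was higher in OB than in ODR by 1.44 ± 0.40 (adjusted p = 0.027, limma), 1 of 7 where 5.74% of all genes were called higher and 10.5% in either direction. The Id3 call was lost on leaving out either ODR library or OB replicate 1 or 3 (adjusted p = 0.0706 to 0.169, limma). It was lost too with the shared library kept under its BMP4 label. OA differed from ODR in 0 of 7 and OB from OA in 0 of 7 at day 6, where 2.22% and 7.28% of all genes were called.

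The single libraries gave a different picture for each gene. In mESC, Id1 was at 6, its lowest value in the table, while Smad7 at 436 was the highest of any library. Id2 was at 59, Id3 at 64, and Id4, Smad6 and Smad9 at 22 each. MEF held Id1 at 76, Id2 at 105, Id3 at 422 and Smad7 at 420, with Id4 at 50, Smad6 at 51 and Smad9 at 50. Smad7 in both of these libraries lay above all the reprogramming libraries.

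Id1 was listed at 9301 in both day 9 libraries without BMP4, ODDR and ODB, and at 5616 in the library deposited under both day 9 BMP4 labels. These exceed the 1046 to 1432 of BMP4-treated ODR and OB cells at day 6. The labels do not say whether Id1 was among the factors delivered in ODDR and ODB, and RNA from a delivered copy and from the cells' own gene cannot be told apart in these values. The other members did not share this. Id2 was at 16 in ODDR and 126 in ODB, Id3 at 16 and 15, and Id4 at 0 in both. Smad6 was at 4 and 6, Smad7 at 31 and 32, and Smad9 at 36 and 8. In the shared BMP4 library Id2 was at 629, Id3 at 623, Id4 at 20, Smad6 at 184, Smad7 at 88 and Smad9 at 200, each above both libraries without BMP4. The labels give that column to both combinations, and its Kdm2b value of 239 lies near the 452 of ODDR and far from the 18690 of ODB. Id1 was listed lower there than without BMP4. The highest values in this table recur across genes and libraries, so the size of that gap is not read. Fstl1 was also at 9301 in OA day 6 replicate 1, and Col1a1 at 5616 in every day 1 library.

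**Figure D4:**
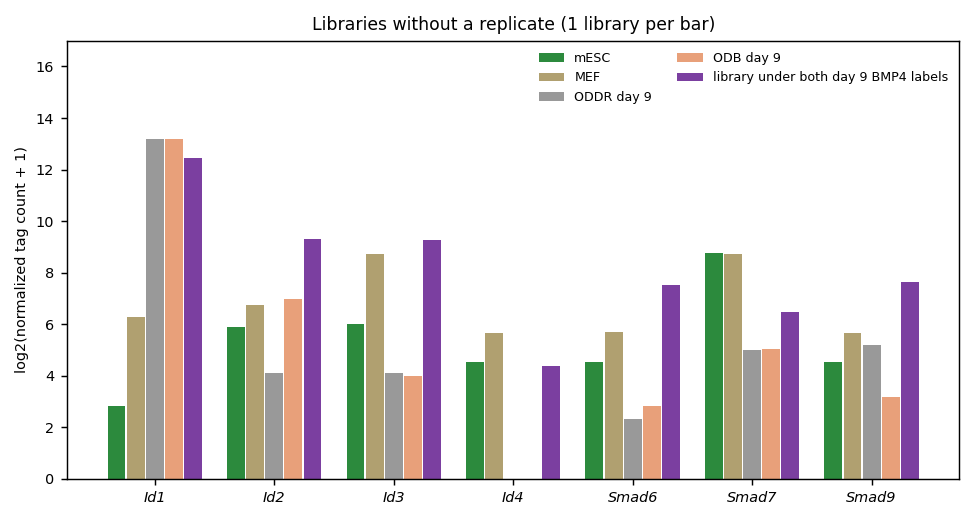
Level (vertical axis, log2 of the value plus 1) of the 7 genes (horizontal axis) in mESC, MEF and the day 9 libraries, 1 bar per library. Id1 stands at 9301 in both day 9 libraries without BMP4, where Id3 is at 16 and 15.

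The wider pathway was read from gene lists. Of 12 other BMP targets tested, 10 rose with BMP4 in OB and 8 in ODR, and none fell, where 15% and 5.06% of all genes were called higher. The 3 with the smallest adjusted p in OB were Dlx3, Tbx3 and Bambi. Tbx3 rose by 4.50 ± 0.44, the decoy receptor Bambi by 5.19 ± 0.54, and Dlx3 was listed at 0 without BMP4 and at a mean of 57 with it. In OB from day 6 to day 14, 5 of the 12 rose and 3 fell, where 26.8% of all genes were called higher and 55% in either direction. Msx1, a homeobox target, rose by 5.10 ± 0.82 and Atoh8 by 3.52 ± 0.70, while Runx2 fell by 1.73 ± 0.18 and Gata3 fell by 1.84 ± 0.36. At day 14 the mean of Atoh8 stood at 86.7% of its BMP4 level, that of Msx1 at 25.1%, that of Bambi at 10.3% and that of Dlx2 at 0.381%.

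Among ligand genes, Bmp4 itself was at 13, 12, 18 and 16 in OB at day 6 and at 396, 272 and 260 at day 14, a log2 rise of 4.29 ± 0.35 (adjusted p = 4.45e-08, limma). It was higher in OB than in ODR at day 14 by 2.16 ± 0.38 (adjusted p = 0.000102, limma). Bmp7 rose from day 6 to day 14 in OB by 3.28 ± 0.57, and Bmp2 did not pass (0.47 ± 0.44). With BMP4 added, the level of the Bmp4 gene in OB was 15 on average against 14.8 without. Of 7 ligands tested, 3 rose and 2 fell in OB from day 6 to day 14, and 0 rose and 2 fell with BMP4, where 55% and 32.5% of all genes were called.

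Of 13 secreted or membrane antagonists tested, 7 rose and 2 fell with BMP4 in OB, and 3 rose and 5 fell in OB from day 6 to day 14, beside the same 32.5% and 55% of all genes. Nog (noggin), which binds BMP4, was at a mean of 0.75 without BMP4 and 463 with it, and at 3 in OB at day 14. Grem1 (gremlin), another BMP antagonist, fell in OB with BMP4 by 2.04 ± 0.60 and from day 6 to day 14 by 3.03 ± 0.53. Of 8 receptors, 4 rose with BMP4 in OB, among them Bmpr2 by 1.13 ± 0.11 and Acvr1 by 1.38 ± 0.16, and 0 fell. From day 6 to day 14 in OB, 3 rose and 4 fell. Of 6 signal transducers 2 rose and 2 fell in each of these comparisons. The receptor and transducer counts too stand beside 32.5% of all genes called with BMP4 and 55% from day 6 to day 14. Smad5, which carries the signal beside Smad9, rose with BMP4 by 1.68 ± 0.24 in OB and 2.34 ± 0.34 in ODR.

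The 3 E proteins with which Id proteins pair were Tcf3, Tcf4 and Tcf12. All 3 rose in OB from day 6 to day 14, by 0.54 ± 0.11, 1.41 ± 0.17 and 1.62 ± 0.15, in the same libraries in which Id1, Id2 and Id3 rose. In that comparison 26.8% of all genes were called higher and 55% in either direction. These shares also stand beside the marker counts over those days given below. With BMP4 none of the 3 E proteins rose, and Tcf12 fell by 0.49 ± 0.17 in OB (adjusted p = 0.0308, limma) and by 0.80 ± 0.23 in ODR (adjusted p = 0.0344, limma). Of all genes, 32.5% were called with BMP4 in OB and 11.5% in ODR, in either direction. Markers of other cells moved over the same days in OB: the fibroblast sum was 36450 to 38927 at day 6 and 19210 to 24976 at day 14. Of its 8 markers 3 rose, Pdgfra, Prrx1 and Twist1, and 2 fell, and Postn, which had reached the ceiling, was among those that fell. Col3a1 too stood at the ceiling in part of the OB day 6 libraries. The sum of 8 pluripotency markers was 24 to 47 at day 6 and 287 to 335 at day 14, where Sox2 alone was at 274 to 302. Of the 3 of these markers that could be tested Sox2 rose and Utf1 fell, and Nanog was at 4 to 6 and Dppa4 at 0 at day 14. The macrophage sum was 283 to 488 at day 6 and 7 to 34 at day 14. Most of it at day 6 was Lyz2, at 172 to 374 then and at 1 to 12 at day 14. Cd68 was at 59 to 82 and then at 4 to 6, while Csf1r was at 5 to 9 and Aif1 at 0 or 1 already at day 6. The part of these markers in the day 14 levels of the Id genes and Smads was not tested.

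Likeness of pattern was described over the 33 distinct libraries as Pearson's r of log2(value + 1), without a test, since these libraries share factor combinations, BMP4 and one normalization. The 3 genes most like Smad6 were Gse1 (0.933), Slc6a6 (0.933) and Gins2 (0.903). Those most like Id2 were Gins2 (0.898), Cxxc5 (0.884) and Rrm1 (0.882), and those most like Id3 Clmp (0.917), Prrx2 (0.892) and Kif26a (0.853). Id1 had lower values, with Rab3c (0.823), Mark1 (0.819) and Cd83 (0.818). All r values of Id1, also those with other members, take in the day 9 libraries, where it was listed at 9301 or 5616. The labels do not say whether Id1 was a delivered factor there, and r was not computed without those libraries. Id4 was nearest to Spsb1 (0.87), Sgk3 (0.812) and Lrp5 (0.809), Smad7 to Kpna1 (0.913), Spsb1 (0.904) and Cap2 (0.88), and Smad9 to Gja3 (0.909), Lrp5 (0.905) and Slc9a2 (0.9). No member was among the 3 nearest genes of another. Neighbours were sought only among genes that reached a set level in some library. Id4, at 90 at most, did not reach it and could not be listed as a neighbour. Between members, r was highest for Id3 with Smad6 at 0.851, Id2 with Smad6 at 0.828 and Id2 with Id3 at 0.814, and lowest for Id1 with Id4 at 0.091.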

How the data were processed

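Messenger RNA was measured in 35 libraries. The tools named in the submitters' processing notes are bcl2fastq, Bowtie2 2.2.5 and RSEM, with build mm10. The authors deposited 1 table of whole numbers for 21350 genes, taken here as a normalized tag count score. How they were normalized is not stated in the labels or the table. Column totals ran from 4255921 to 4398785 with a shared ceiling of 18690, which no member reached. Below the ceiling the highest values recur across genes and libraries as well, and the 9301 and 5616 of Id1 at day 9 are among them. Since these are not read counts, the depth is unknown and no count model or counting interval was used.

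Values were taken as log2(value + 1), keeping 13860 genes with at least 10 in at least 2 libraries. Limma 3.58.1 in R 4.3.3 fitted 27 libraries in 11 groups (16 residual degrees of freedom) without a block, in 22 comparisons, 3 of them differences between effects. Calls were two-sided at 0.05 on p-values adjusted by Benjamini and Hochberg over all genes. The shared day 6 library, planned for both ODR groups, was left out, and the single libraries entered no test. Figures were drawn in matplotlib 3.10.9.

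Named were all 7 members, Kdm2a as a label check, up to 3 genes per direction and list by adjusted p, Bmp2, Bmp4, Bmp7 and Nog, and the 3 genes most like each member. Single markers were also named to show what a sum holds. Members and lists were chosen with earlier results of these data known. Alternatives changed the pseudocount (10), filter, trend, block, groups fitted, shared library and each replicate, and leaving the library labelled OA day 14 replicate 2 out of the pooled spread was added after seeing the data. The fit was tested on simulated data.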

Additional observations from a re-analysis of the deposited data

Results flagged for a closer look

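The change from day 6 to day 14 differed between OB and ODR in a test of the difference for Id1 (2.83), Id2 (3.92) and Smad7 (1.41), and between OB and OA for Id2 (2.44), all on the log2 scale and larger in OB. Id1 was listed at 9301 in both day 9 libraries without BMP4, which no comparison uses. The labels do not say whether Id1 was a delivered factor there, so that this may not be the level of the cells' own gene. In the same libraries Id2 was at 16 and 126, Id3 at 16 and 15 and Id4 at 0 in both. In the library deposited under both day 9 BMP4 labels, Id2 at 629, Id3 at 623, Id4 at 20, Smad6 at 184, Smad7 at 88 and Smad9 at 200 were above both day 9 libraries without BMP4. These day 9 differences were not tested. Of 7 gene and group pairs with 4 libraries, none held a library far from the others.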

How the results depend on the processing

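No member changed direction while called under any alternative. All 7 calls for BMP4 in OB held throughout, and OB against ODR at day 14, OB day 14 against day 6 and OB day 14 against BMP4-treated OB gave 4 to 5 members. With pseudocount 10, OB against OA at day 1 gave 1 member (Id4), OA against ODR at day 14 gave 1, and the difference of day 14 changes between OB and ODR 5. With a trend, OA against ODR at day 14 gave 1 and OA day 6 against day 1 gave 2. A fit of only the groups compared, in which members with low values were not tested, gave 1 for OB against OA at day 1 (Id4), 1 for OB against OA at day 14, 2 for ODR day 6 against day 1, 3 for OA day 6 against day 1, 0 for OA day 14 against day 6, 0 for BMP4 in ODR and 5 for the OB minus ODR change. With the shared library as ODR without BMP4, OB against ODR at day 6 gave 2 and ODR day 6 against day 1 gave 2. With it as ODR with BMP4, these counts were 0 for OB against ODR at day 6, 0 for ODR day 14 against day 6, 0 for BMP4 in ODR, 1 for OB against ODR with BMP4 and 1 for the OB minus ODR change. With the library labelled OA day 14 replicate 2 out of the spread, ODR and OA day 6 against day 1 gave 4 and 5, and the OB minus ODR change 5. Leaving out 1 replicate each gave 0 to 1 for OB against ODR at day 6, 0 to 4 for OA against ODR at day 14, 1 to 2 for OA day 6 against day 1, 1 to 3 for OB day 6 against day 1 and 1 to 3 for the OB minus OA change. The replicate block lost only Id4 for BMP4 in ODR (4.45, adjusted p = 0.054, limma). Same-numbered libraries deviated together with a median correlation of 0.044, 25 of 100 pairs being over 0.1, against a median of -0.020 and 14 of 202 for different numbers. Not every same-numbered pair was over 0.1, and the numbers were not taken to pair samples in the main fit. That rule cannot exclude pairing in a part of the groups. Over all genes the count for BMP4 in ODR ran from 0 to 2467 (1598 as reported), for BMP4 in OB from 2490 to 5153 (4504), for OA against ODR at day 14 from 5 to 1228 (741) and for OA day 14 against day 6 from 4 to 1783 (1128). The only ODR library with BMP4 cannot be left out. Depth is unknown, and values near 0 limit Id4 and Smad6.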

Other observations

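Targets of the TGF-beta and activin branch, which Smad7 also restrains, were measured in the same libraries. Of 8 tested, 4 rose with BMP4 in OB and 0 fell, where 15% of all genes rose, among them Skil, a Smad co-repressor, by 2.22 ± 0.16 and Tgfbi, a matrix protein, by 2.75 ± 0.39 on the log2 scale. At day 14, 3 were higher and 3 lower in OB than in ODR, where 54.7% of all genes were called. Skil was higher by 0.65 ± 0.15, while Ctgf, a matricellular protein, was at -2.68 ± 0.43 (adjusted p = 0.00158 and 3.81e-05, limma).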
